A study of Rattus norvegicus with 18 samples.

Results

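The genes described here belong to the unfolded protein response of the endoplasmic reticulum (ER) and to the amino acid response: Atf4, Ddit3, Trib3, Asns, Phgdh, Psat1, Hspa5 and Xbp1. They were taken as all probe sets, the groups of oligonucleotides that read 1 transcript on an Affymetrix array, whose annotation names 1 of these 8 genes and no other gene. This gave 10 probe sets of 31256 in all, for 8 of 13811 named genes. The 10 lie on the rat RAE230A array (array A, 15923 probe sets), and 0 lie on the RAE230B array (array B, 15333 probe sets). Each gene had 1 probe set except Trib3, which had 3. All 10 passed the filter on dim probe sets, which kept 9520 probe sets of array A.

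Rings of 2 mm were cut from the thoracic aorta of male Fisher 344 rats aged 5 weeks and cultured in serum-free medium, a model in which vascular sprouts, mural cells, fibroblasts and macrophages grow from the vessel wall. From day 13 of culture the VEGF group received recombinant human vascular endothelial growth factor at 10 ng/ml. The Ang1 group received recombinant human angiopoietin-1 at 100 ng/ml together with a poly-His antibody at 5 µg/ml, and the untreated group received neither factor nor antibody. The labels place RNA extraction 20 h after treatment, and the design text 18 h. Each group had 3 RNAs, each from 4 to 6 pooled rings and each read on both array types, which made 18 samples. According to the design text, rings of each of 3 animals were divided over the 3 groups, but no label links a replicate number to an animal, so p-values measure the spread between these RNAs. No group received the antibody alone, so angiopoietin-1 and antibody cannot be told apart. Labelling is described as a 2-cycle procedure for untreated replicate 1 only.

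Cells answer a load of unfolded protein in the ER and a shortage of amino acids through partly shared routes. Stress kinases that phosphorylate the initiation factor eIF2 slow protein synthesis but favour translation of ATF4, a transcription factor that turns on genes of amino acid synthesis and transport as well as Ddit3 and Trib3. In parallel, the ER sensor IRE1 splices Xbp1 mRNA into the form that encodes an active transcription factor, and cleaved ATF6 raises ER chaperones such as the Hspa5 product BiP. The arrays measured mRNA and so give neither ATF4 translation nor the spliced share of Xbp1.

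The promoters of 3 members are shown because each holds at least 1 of the motifs searched, all known from this response. They are RefSeq sequences of assembly GRCr8, read 5′ to 3′ on the gene's strand, from 250 bases before the start of transcription to 50 after it.
Hspa5, chr3:38452766-38453065, plus strand: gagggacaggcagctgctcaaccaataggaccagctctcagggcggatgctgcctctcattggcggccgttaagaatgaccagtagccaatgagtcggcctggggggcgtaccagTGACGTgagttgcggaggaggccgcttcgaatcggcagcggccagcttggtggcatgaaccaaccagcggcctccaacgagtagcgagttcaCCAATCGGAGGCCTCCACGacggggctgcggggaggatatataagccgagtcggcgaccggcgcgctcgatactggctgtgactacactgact
Xbp1, chr14:84604373-84604672, plus strand: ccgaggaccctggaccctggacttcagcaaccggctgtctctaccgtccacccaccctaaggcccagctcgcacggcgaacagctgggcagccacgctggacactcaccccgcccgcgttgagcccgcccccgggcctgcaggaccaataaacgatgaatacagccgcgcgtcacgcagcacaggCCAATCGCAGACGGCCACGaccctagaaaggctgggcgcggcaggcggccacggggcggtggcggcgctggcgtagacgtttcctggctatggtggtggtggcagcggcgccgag
Trib3, chr3:161275484-161275783, minus strand: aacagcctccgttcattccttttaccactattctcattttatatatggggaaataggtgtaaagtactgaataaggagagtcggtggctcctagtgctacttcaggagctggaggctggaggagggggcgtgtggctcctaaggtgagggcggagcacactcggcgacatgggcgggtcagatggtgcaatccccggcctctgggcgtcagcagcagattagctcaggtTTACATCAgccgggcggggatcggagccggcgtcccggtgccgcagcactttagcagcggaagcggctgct
Capitals mark the ER stress element, which ATF6 binds together with NF-Y (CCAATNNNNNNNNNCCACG), in Hspa5 and Xbp1. In Hspa5 they also mark a CRE-like motif (TGACGT), and in Trib3 a C/EBP-ATF composite (TGATGNAA), the kind of site bound by ATF4 dimers, which lies on the opposite strand. The ER stress element was found in 2 of the 8 member promoters and in 0.0657% of all 33469 promoters of the table. The composite was found in 1 of 8 and in 3.98% of all, the CRE-like motif in 1 of 8 and in 7.94% of all, and the core of the UPR element (ACGTGG) in 0 of 8 and in 7.84% of all. Both strands were searched, and the marked matches do not overlap. Of the motifs searched, the windows of Atf4, Asns, Phgdh, Psat1 and Ddit3 held 0. The windows of Asns (chr4:36769366-36769665) and Psat1 (chr1:222645359-222645658), both on the minus strand, lie inside the annotated genes, which end at 36769970 and 222646187. The outermost starts of these genes were therefore not searched, and their 0 holds for these windows only. A match is a description of letters and shows no binding.

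Of the 9 RNAs, 2 stood apart on array A. The median correlation with the other arrays was 0.69 for Ang1 replicate 2 and 0.79 for untreated replicate 2, against 0.87 to 0.95 for the other 7. The 3′ probe set of the Gapdh control read 446.9 in Ang1 replicate 2 and 64.4 in untreated replicate 2, against 2217.8 to 3246.8 in the 7. The actin control's 3′ probe set divided by its 5′ probe set is a measure of how far labelling reached along the RNA. It gave 8.79 to 12.4 in VEGF, 6.18 to 8.29 in Ang1 and 1.86 to 7.70 in untreated arrays. The lowest Ang1 and untreated ratios were those of the libraries that stood apart, whose 3′ Gapdh signal was low. The other 7 arrays ran from 4.34 to 12.4. The members' differences from untreated rings are therefore given with all 9 arrays and with the 7 that remain without both. On array A smooth muscle markers were measured for 8 of 8 listed genes, and 0 of them were at 0 in all samples. A marker sum here adds the highest deposited signal of each gene in an array, so bright genes weigh most. The smooth muscle sum was 6845 to 7501 in VEGF and 7464 to 8520 in Ang1, against 9461 to 13950 in untreated rings. For 7 of 9 endothelial markers the sum was 1529 to 2181 in VEGF and 1227 to 2171 in Ang1, against 1031 to 1747 in untreated rings, but 3 of 9 on array B summed to 2393 to 3815 in VEGF and 1043 to 2566 in Ang1, against 3831 to 4620 in untreated rings. The endothelial sums thus overlapped on array A and lay below untreated on array B, for VEGF only narrowly (highest sum 3815, against a lowest untreated sum of 3831). On array B, Ang1 replicate 3 had a trimmed mean signal of 94.79, lower than any other array. The part of this lower scale in the Ang1 sums of array B, here and below, was not tested. For 3 of 5 Schwann cell markers the sum was 1297 to 1974 in VEGF and 1081 to 1696 in Ang1, against 1746 to 3440 in untreated rings. For 7 of 9 macrophage markers it was 10970 to 20700 in VEGF and 11170 to 26680 in Ang1, against 9083 to 15190 in untreated rings, and for 8 of 8 fibroblast markers 24770 to 40720 in VEGF and 27770 to 51160 in Ang1, against 27980 to 35780 in untreated rings. On array B, 2 of 9 macrophage markers summed to 2906 to 3869 in VEGF and 1121 to 5289 in Ang1, against 1642 to 2300 in untreated rings. The VEGF sums thus lay above untreated there, whereas on array A they overlapped. For 5 of 8 smooth muscle markers the array B sums overlapped, at 271.7 to 475.7 in VEGF, 106.1 to 898.4 in Ang1 and 291.7 to 326.5 in untreated rings. For 3 of 9 lymphocyte and plasma cell markers, of which 1 probe set was kept, the array A sum was 94.9 to 157.8 in VEGF and 117.7 to 227.0 in Ang1. In untreated rings it was 85.5 to 107.1, below all Ang1 sums, but on array B the Ang1 and untreated sums overlapped. Pericyte, adipocyte and mast cell sums overlapped on array A. The part of cell makeup and of the 3′ to 5′ ratio in the differences below was not tested, and in bulk RNA fewer cells of a type and less RNA per cell cannot be told apart.

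To ask how VEGF or Ang1 altered these transcripts, the groups were compared with limma over all kept probe sets of the array type, on log2(signal + 16) after quantile normalisation. A difference is in log2 units with its standard error (SE), and a call needs an adjusted p below 0.05. Of the 10 member probe sets 0 were called in any comparison, and so were 0.0% of the 9520 tested. At an unadjusted p below 0.05 the count was 0 of 10 for VEGF against untreated (1.66% of all tested), 1 of 10 for Ang1 against untreated (3.18%) and 0 of 10 for VEGF against Ang1 (1.99%). With the replicate number as a block these counts were 0, 1 and 0 of 10 again, where 3.12%, 4.38% and 4.31% of all tested passed, and the lowest adjusted p of a member was 0.843 (limma, Ang1 against untreated). With 3 RNAs against 3, an exact test of a single gene cannot go below p = 0.1. The SE of the member differences ran from 0.28 to 0.75, and with the block from 0.25 to 0.47. The SEs, intervals and p-values given below are those of the fit without the block.

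After VEGF most member differences lay above 0, and none passed the test. Of the 10 probe sets 9 had a difference above 0, where 49.1% of all tested did, and the median was 0.29 against -0.01 over all tested. Of the 10, all 3 VEGF values lay above all 3 untreated values in 1, Asns, where 3.59% of all tested did, and below them in 0, where 4.79% did. Without both libraries that stood apart, 7 of 10 differences were above 0 and the median was 0.12. For Ang1 against untreated the median was 0.06, against -0.03 over all tested, with 6 of 10 above 0 (46.7% of all). In 1 of these, Phgdh, all Ang1 values lay above all untreated values (3.52% of all tested), and in 0 below (5.57%). Without both libraries the median was 0.02, with 5 of 10 above 0. The comparisons with untreated rings share those rings. For VEGF against Ang1 the median was 0.36 with 8 of 10 above 0 (52.5% of all, median 0.02), with 0 probe sets of separate groups in either direction (3.78% above and 4.23% below among all), and the median was 0.12 with 5 of 10 above 0 without both libraries.

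**Figure D1:**
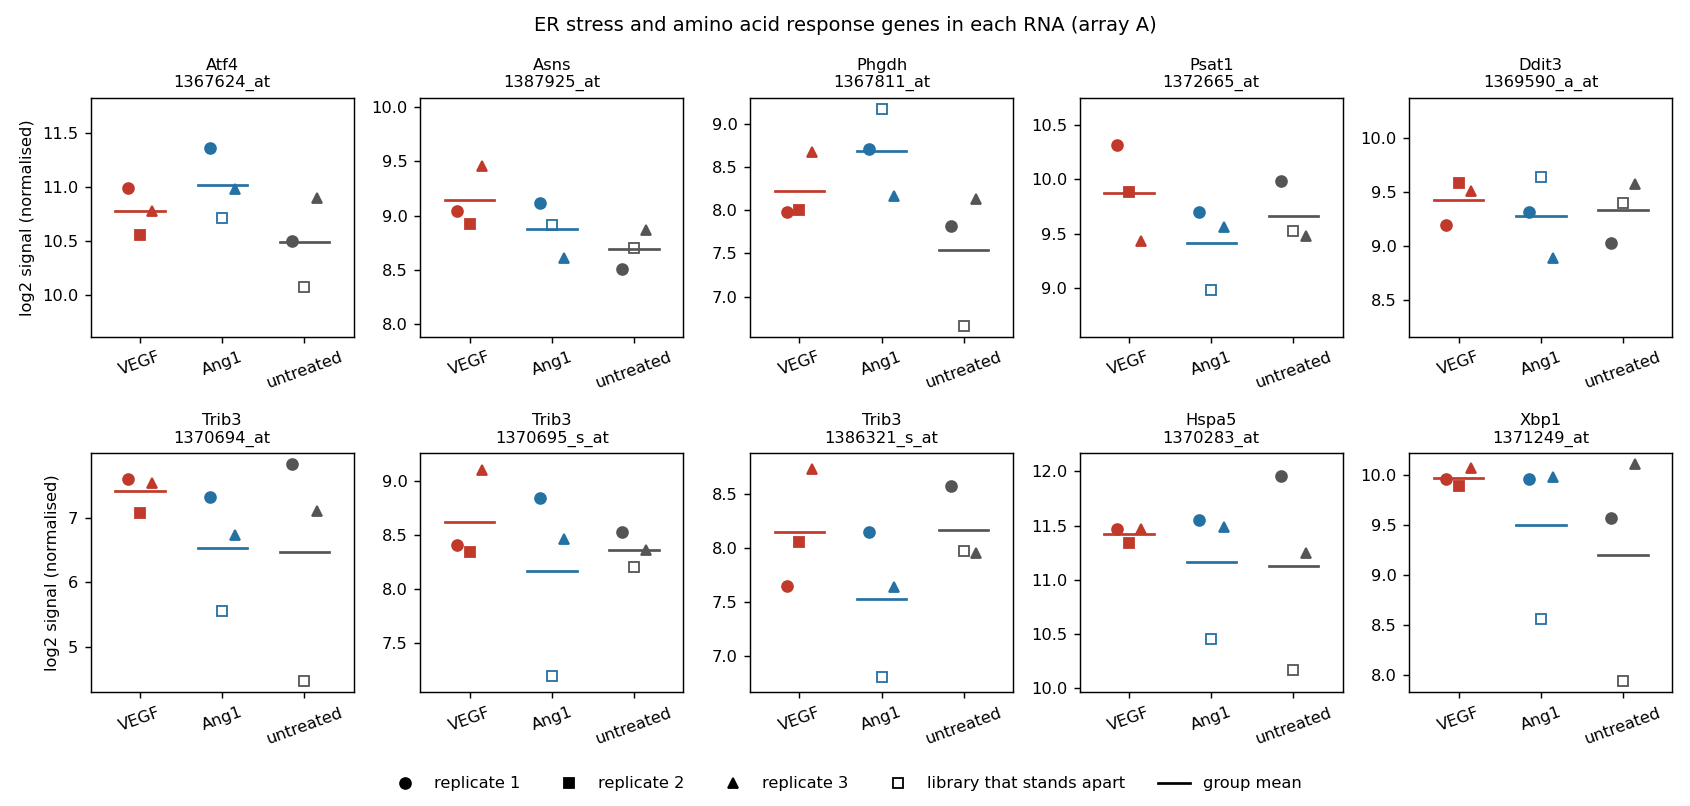
Normalised log2 signal (vertical axis, array A) of each member probe set in the VEGF, Ang1 and untreated RNAs; marker shapes are replicates, bars group means and open squares the libraries that stood apart. Asns lies narrowly higher in all 3 VEGF RNAs than in any untreated RNA, and Hspa5 and Xbp1 are lowest in the open squares.

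Atf4 encodes the transcription factor at the centre of the amino acid response (probe set 1367624_at, gene on chromosome 7, 113684681 to 113686739, GRCr8). Its deposited signal was 1985.7, 1492.3 and 1694.8 in VEGF RNAs, 2587.2, 1272.4 and 1963.7 in Ang1 RNAs, and 1510.4, 1210.3 and 2023.3 in untreated RNAs. Ang1 replicate 1 had the highest value and untreated replicate 2 the lowest, and the ranges of the groups overlapped. The difference was 0.53 ± 0.29 for Ang1 against untreated (limma, adjusted p = 0.951), 0.28 ± 0.29 for VEGF against untreated (adjusted p = 1.00) and -0.24 ± 0.29 for VEGF against Ang1 (adjusted p = 0.973). Without both libraries these were 0.46, 0.08 and -0.38. The 95% confidence interval of the Ang1 fold ran from 0.925 to 2.24.

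Ddit3 encodes CHOP, a C/EBP-family factor that ATF4 turns on and that promotes cell death under lasting stress (1369590_a_at, chromosome 7, 65001695 to 65006517). It read 599.8, 753.5 and 684.9 in VEGF RNAs, 619.5, 646.6 and 478.6 in Ang1 RNAs and 514.7, 675.1 and 762.5 in untreated RNAs. The groups overlapped, and neither library that stood apart was low. Ddit3 had the smallest differences among the members measured by 1 probe set for VEGF against untreated, 0.09 ± 0.29 (95% interval -0.56 to 0.74), and differed by -0.06 ± 0.29 (-0.71 to 0.60) for Ang1 against untreated. Neither passed (limma, adjusted p = 1.00 and 0.990), and without both libraries the differences were 0.12 and -0.20.

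Trib3 encodes a pseudokinase that ATF4 and CHOP induce and that restrains ATF4 in turn (chromosome 3, 161269939 to 161275533). Its 3 probe sets disagreed, as their differences for VEGF against untreated were 0.95 ± 0.75 (1370694_at), 0.26 ± 0.42 (1370695_s_at) and -0.02 ± 0.41 (1386321_s_at). For Ang1 against untreated they were 0.07 ± 0.75 (1370694_at), -0.19 ± 0.42 (1370695_s_at) and -0.63 ± 0.41 (1386321_s_at), and none of the 6 passed (limma, adjusted p of 0.951 or above). Probe set 1370694_at read 173.5, 119.2 and 179.2 in VEGF RNAs, 144.6, 52.4 and 81.3 in Ang1 RNAs and 202.4, 5.2 and 110.8 in untreated RNAs. The value of 5.2, in untreated replicate 2, lies below the added constant of 16, so its log2 value depends on that constant. Without both libraries the VEGF difference of this probe set was -0.06 and the Ang1 difference -0.46. Probe set 1370695_s_at read 327.0, 312.2 and 529.4 in VEGF RNAs, 445.0, 190.6 and 347.1 in Ang1 RNAs and 350.1, 242.4 and 311.3 in untreated RNAs. Probe set 1386321_s_at read 179.9, 248.9 and 408.4 in VEGF RNAs, 269.1, 153.9 and 181.4 in Ang1 RNAs and 360.0, 199.9 and 225.7 in untreated RNAs. Groups overlapped in both, and untreated replicate 2 was less far from its group than in 1370694_at. Without both libraries 1370695_s_at differed by 0.18 for VEGF and 0.21 for Ang1 against untreated, and 1386321_s_at by -0.12 for VEGF and -0.37 for Ang1. All 3 probe sets had their lowest or next lowest value in Ang1 replicate 2, at 52.4, 190.6 and 153.9.

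Of the 10 member probe sets, only those of Asns after VEGF and Phgdh after Ang1 were separated from untreated RNAs. Each was 1 of 10, where 3.59% of all tested lay above untreated after VEGF and 3.52% after Ang1. Psat1, also an enzyme of amino acid synthesis, overlapped. Asns, asparagine synthetase and a textbook ATF4 target (1387925_at, chromosome 4, 36752061 to 36769970), read 537.2, 475.6 and 659.8 in VEGF RNAs, 545.4, 433.5 and 385.7 in Ang1 RNAs and 344.1, 370.3 and 453.0 in untreated RNAs. All 3 VEGF values exceeded all 3 untreated values, though only narrowly (lowest VEGF 8.92, highest untreated 8.87 log2 units). The Ang1 values overlapped both groups. The VEGF level was 1.36-fold the untreated level (0.45 ± 0.28, 95% interval 0.887 to 2.09-fold, limma, adjusted p = 1.00), and Ang1 differed from untreated by 0.19 ± 0.28 (adjusted p = 0.956). Neither library that stood apart was extreme for Asns, and the VEGF difference was 0.46 without both. Leaving out each RNA in turn gave 0.29 to 0.56.

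Phgdh, which starts serine synthesis from a glycolytic intermediate (1367811_at, chromosome 2, 188595700 to 188624789), read 233.4, 241.5 and 397.9 in VEGF RNAs, 402.8, 498.2 and 274.9 in Ang1 RNAs and 201.2, 72.8 and 260.8 in untreated RNAs. All 3 Ang1 values exceeded all 3 untreated values, though only narrowly (lowest Ang1 8.17, highest untreated 8.13 log2 units). The libraries that stood apart held the extremes, Ang1 replicate 2 the highest and untreated replicate 2 the lowest of the 9. Ang1 against untreated was 2.22-fold (1.15 ± 0.43, 95% interval 1.15 to 4.27-fold), with an unadjusted p of 0.0217 that did not pass (limma, adjusted p = 0.951). Without both libraries the difference was 0.48 ± 0.35 (adjusted p = 0.998). For VEGF against untreated it was 0.69 ± 0.43 with all arrays and 0.26 without both.

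Psat1, the aminotransferase of the next step of serine synthesis (1372665_at, chromosome 1, 222623553 to 222646187), read 1283.8, 939.5 and 646.2 in VEGF RNAs, 815.1, 449.8 and 770.1 in Ang1 RNAs and 1029.3, 752.6 and 723.1 in untreated RNAs. The VEGF values spanned the untreated range, and Ang1 replicate 2 was lowest. The difference was 0.21 ± 0.32 for VEGF (limma, adjusted p = 1.00) and -0.25 ± 0.32 for Ang1 against untreated (adjusted p = 0.954), and 0.14 and -0.10 without both libraries. Phgdh was thus highest on average after Ang1 and Psat1 lowest, and the direct comparison of VEGF with Ang1 gave -0.46 ± 0.43 for Phgdh and 0.46 ± 0.32 for Psat1 (limma, adjusted p = 0.973 each).

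Hspa5 encodes BiP, the main chaperone of the ER lumen, whose promoter with its ER stress element is shown above (1370283_at, chromosome 3, 38453016 to 38457475). It read 2629.7, 2510.5 and 2870.3 in VEGF RNAs, 2907.6, 1065.2 and 2637.0 in Ang1 RNAs and 3896.1, 1296.2 and 2564.5 in untreated RNAs. The VEGF RNAs were close together, with 11.43 ± 0.07 log2 units, against 11.17 ± 0.61 in Ang1 and 11.13 ± 0.90 in untreated RNAs (SD, n = 3). The low values were those of the libraries that stood apart, and the highest was untreated replicate 1. Hspa5 differed by 0.30 ± 0.43 for VEGF and 0.04 ± 0.43 for Ang1 against untreated (limma, adjusted p = 1.00 and 0.992), and by -0.16 ± 0.22 and -0.07 ± 0.24 without both libraries.

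Xbp1, the transcription factor gene spliced by IRE1 (1371249_at, chromosome 14, 84604623 to 84609707), read 1005.0, 941.8 and 1021.0 in VEGF RNAs, 989.3, 367.6 and 1030.8 in Ang1 RNAs and 771.8, 195.1 and 1134.3 in untreated RNAs. The libraries that stood apart were again lowest. Its difference was 0.76 ± 0.55 for VEGF and 0.29 ± 0.55 for Ang1 against untreated (limma, adjusted p = 1.00 and 0.964), and 0.13 ± 0.26 and 0.12 ± 0.28 without both. Over the 7 RNAs the level was the least variable of the members, with an SD of 0.18 log2 units against a median of 0.31 over all kept probe sets. Within those 7, untreated replicate 1 had the highest Hspa5 and the lowest Xbp1.

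**Figure D2:**
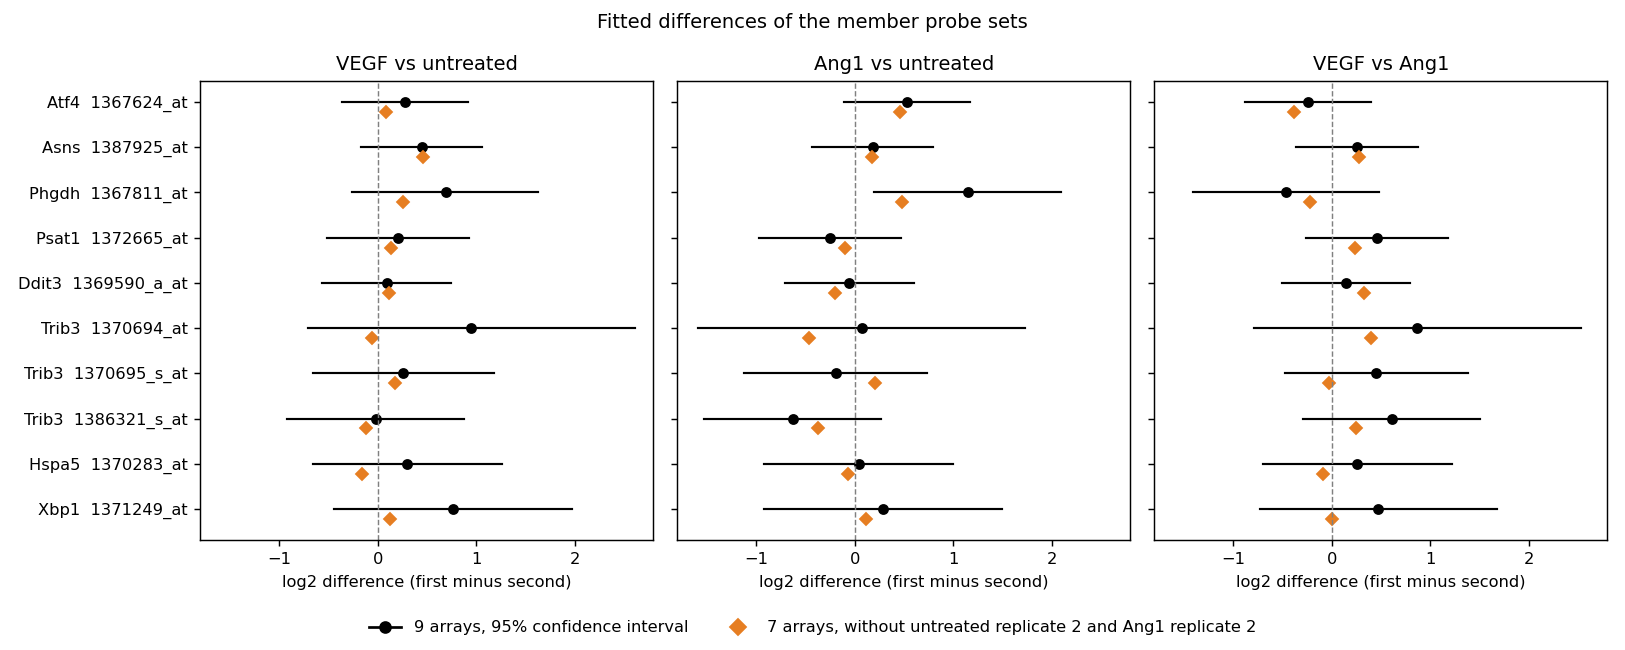
Fitted log2 difference (horizontal axis) of each member probe set in 3 comparisons, the first group minus the second; circles use 9 arrays with 95% confidence intervals and diamonds use the 7 arrays without the libraries that stood apart. Only the Phgdh interval for Ang1 against untreated, 0.20 to 2.10, lies off 0, and its diamond is at 0.48.

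The order of the group means was VEGF above Ang1 above untreated for 4 probe sets (Asns, Hspa5, Xbp1 and Trib3 1370694_at), and Ang1 above VEGF above untreated for 2 (Atf4 and Phgdh). It was VEGF above untreated above Ang1 for 3 (Psat1, Ddit3 and Trib3 1370695_s_at) and untreated above VEGF above Ang1 for 1 (Trib3 1386321_s_at). In each of the 10, neighbours in this order had overlapping values.

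Much of the spread among the RNAs lay in the libraries that stood apart, and it divided the members. Measured from the mean of the other 7 RNAs, Ang1 replicate 2 lay at -1.76, -1.37 and -1.30 log2 units for the Trib3 probe sets, -1.38 for Xbp1 and -1.04 for Hspa5. Thus 5 of the 10 member probe sets, among them all those of the single gene Trib3, were more than 1 unit low there, where 19.9% of all kept probe sets were. Another 12.8% of all kept probe sets were more than 1 unit high there. Phgdh ran the other way, at 0.96. Untreated replicate 2 lay at -2.85 for Trib3 1370694_at, -1.99 for Xbp1, -1.55 for Phgdh and -1.33 for Hspa5, and between -0.78 and 0.11 for the other 6 probe sets. Here 4 of 10 probe sets were more than 1 unit low, where 11.5% of all kept probe sets were and 4.64% were more than 1 unit high. Asns lay at -0.03 in Ang1 replicate 2 and -0.24 in untreated replicate 2, and Ddit3 at 0.34 in Ang1 replicate 2 and 0.11 in untreated replicate 2. The mean deviation over the 10 probe sets was -0.65 for Ang1 replicate 2 and -0.94 for untreated replicate 2, where the other 7 RNAs ran from -0.20 to 0.22.

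**Figure D3:**
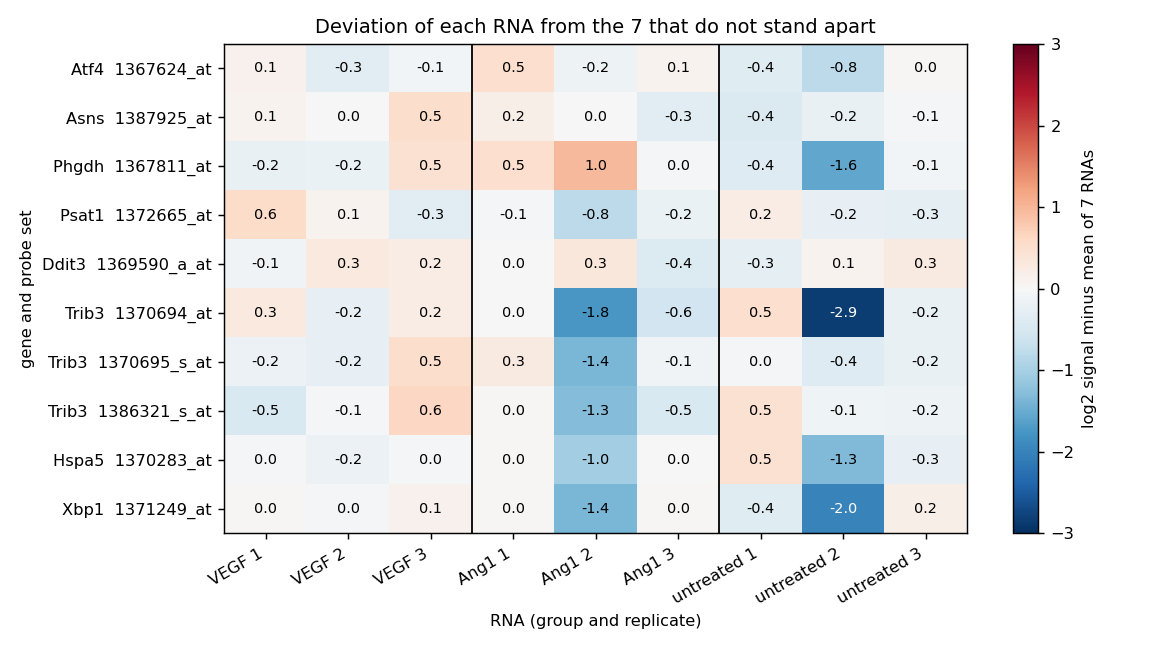
Log2 signal of each member probe set (rows) in each RNA (columns, VEGF, Ang1, untreated) minus its mean over the 7 RNAs that did not stand apart, in colour and number. Ang1 replicate 2 and untreated replicate 2 hold the values below -1, with Asns and Ddit3 near 0 in both.

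By similarity of profile, measured by Pearson's r over the 9 arrays among kept named probe sets of array A and given as a description, the genes nearest to Atf4 were Dhx16 (0.930), Kdelr1 (0.928), a receptor that returns ER proteins from the Golgi, and Fkbp4 (0.928). Nearest to Asns were Maea (0.943), Fxyd6 (0.894) and Ppp2r5c (0.879), and to Ddit3 Bccip (0.935), Kank1 (0.878) and Rpl27 (0.877). For Xbp1 they were Chmp7 (0.997), Lage3 (0.992) and P4hb (0.991), the last a protein disulfide isomerase of the ER and a member of the chaperone list below. For Hspa5 they were Cdca8 (0.985), Slc44a2 (0.984) and Itm2c (0.967). Phgdh was nearest to Tspan18 (0.970), Vmac (0.965) and Med16 (0.953), and Psat1 to Pigk (0.949), Pcyox1 (0.945) and Hmgb1 (0.942). Trib3 1370694_at was nearest to Tnfrsf12a (0.983), Ptbp1 (0.980) and Aup1 (0.968), 1370695_s_at to Cog4 (0.987), Git1 (0.963) and Ppp4r1 (0.963), and 1386321_s_at to Tubb6 (0.980), Foxo4 (0.944) and Noc2l (0.941). These values share the libraries that stood apart, and over the other 7 the same pairs had r from 0.658 (Trib3 1370694_at with Aup1) to 0.955 (Trib3 1386321_s_at with Tubb6), with 0.845 for Xbp1 and P4hb.

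The wider pathway was read through 7 lists with 85 genes. Of these 76 were measured on array A, and 69 had a kept probe set there, with 81 kept probe sets in all. In each comparison 0 were called. At an unadjusted p below 0.05 there was 1 of 81 for VEGF against untreated (Sars1, the seryl-tRNA synthetase gene; 1.66% of all tested), 1 for Ang1 against untreated (Ero1a, an oxidase that drives disulfide bonding; 3.18% of all) and 0 for VEGF against Ang1 (1.99% of all). With the replicate block there were 3 (P4hb, Sars1 and Wars1), 1 (Ero1a) and 3 (Cars1, Sars1 and Wars1), of which Wars1 and Cars1, the tryptophanyl- and cysteinyl-tRNA synthetase genes, are named for this count alone, after their values were seen. The median difference was 0.14 for VEGF and 0.06 for Ang1 against untreated, against -0.01 and -0.03 over all tested. All VEGF values lay above all untreated values in 2 of 81 probe sets (3.59% of all tested) and below in 4 (4.79%). All Ang1 values lay above all untreated values in 3 of 81 (3.52%) and below in 2 (5.57%). Without both libraries the medians were 0.03 and 0.07. On array B 22 genes were measured, and 16 of them had the 19 kept probe sets. Of these 19, 0 were called in any comparison (0.0% of 9166 tested), and 0 had an unadjusted p below 0.05, where 0.72%, 10.5% and 8.48% of all tested did after VEGF, after Ang1 and between the factors. There 0 of the 19 were separated after VEGF (2.55% of all tested above and 3.92% below), 1 lay above and 1 below after Ang1 (8.71% and 8.76%), and for VEGF against Ang1 0 lay above (5.99%) and 1 below (9.57%). The median of the 19 was 0.31 for VEGF (16 above 0) and -0.16 for Ang1 (9 above 0), and 0.03 and 0.05 without both libraries. After Ang1 every list median of array B except that of the aminoacyl-tRNA synthetases had the opposite sign to array A. After VEGF only that of the amino acid transporters did. The list medians below are those of array A.

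Among the sensors and eIF2 kinases, 5 of 10 kept probe sets had a difference above 0 after VEGF (median 0.05) and 3 of 10 after Ang1 (median -0.11). Without both libraries the Ang1 median was 0.07, with 6 of 10 above 0. The smallest p-values in each direction belonged to Eif2ak1, the heme-regulated eIF2 kinase (0.90 ± 0.57 for 1387272_at, against -0.33 ± 0.25 for its other probe set, 1374402_at), and Mbtps2, a protease that cleaves ATF6 (-0.58 ± 0.35), for VEGF. Without both libraries these were 0.29 for Eif2ak1 1387272_at and -0.34 for Mbtps2. For Ang1 they belonged to Ppp1r15a, a phosphatase subunit that reverses eIF2 phosphorylation (0.39 ± 0.38), and Mbtps2 (-0.69 ± 0.35). Mbtps2 was lower in all Ang1 RNAs than in any untreated RNA, although the difference was -0.24 without both libraries. Partners and targets of ATF4 and CHOP had medians of 0.09 for VEGF (9 of 13 above 0) and -0.24 for Ang1 (6 of 13). Both turned without both libraries, to -0.04 for VEGF (5 of 13) and 0.06 for Ang1 (7 of 13). There Ppp1r15a, which this list also holds, differed by 0.43 ± 0.38 and Nupr1, a stress-induced chromatin factor, by -0.68 ± 0.39 after VEGF, and after Ang1 Gdf15, a stress-induced cytokine, by 0.49 ± 0.43 and the lipoprotein receptor gene Vldlr by -0.85 ± 0.64. These became 0.06 for Ppp1r15a and -0.50 for Nupr1 after VEGF, and 0.06 for Gdf15 and -0.04 for Vldlr after Ang1, without both libraries. The Vldlr values are those of 1387455_a_at, and with all arrays its other kept probe sets differed by -0.42 and -0.24 after Ang1.

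ER chaperones and folding enzymes had the highest of the 7 list medians after VEGF on array A, 0.38 with 12 of 19 above 0. It was 0.06 without both libraries. P4hb had 12.39, 12.42 and 12.79 log2 units in VEGF RNAs, against 11.69, 9.31 and 12.37 in untreated RNAs. The groups were separated only narrowly (lowest VEGF 12.39, highest untreated 12.37), and untreated replicate 2 was far the lowest. The difference of 1.41 ± 0.74 (limma, adjusted p = 1.00) was 0.43 without both libraries. Dnajc3, a co-chaperone, differed by -0.58 ± 0.44 after VEGF. After Ang1 the list median was 0.11, with 14 of 19 above 0. Ero1a had 8.60, 8.68 and 8.67 log2 units in Ang1 RNAs, against 7.52, 8.03 and 8.21 in untreated RNAs. These values, of probe set 1389297_at, lay close together in Ang1 RNAs and above all untreated ones, and untreated replicate 2 was the middle one of its group. The difference was 0.73 ± 0.28 (limma, adjusted p = 0.951) and 0.79 without both libraries, whereas the other Ero1a probe set differed by 0.11 ± 0.44. Its relative Ero1b differed by -1.30 ± 0.67 after Ang1, and by -0.05 without both. In ER-associated degradation, which removes misfolded proteins, the medians were 0.34 for VEGF (7 of 11 above 0) and 0.08 for Ang1 (8 of 11), and 0.00 each without both libraries. Syvn1, the ubiquitin ligase of this route, differed by 0.50 ± 0.36 and Derl2, a channel component, by -0.43 ± 0.28 after VEGF, whereas after Ang1 Derl1 differed by 0.29 ± 0.26 (1374581_at) and Derl2 by -0.36 ± 0.28. Without both libraries Syvn1 differed by 0.27 after VEGF and Derl2 by -0.06 after Ang1.

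In serine and one-carbon synthesis 6 of 7 kept probe sets had a difference above 0 after VEGF (median 0.11) and 5 of 7 after Ang1 (0.14), and 7 of 7 (0.09) and 6 of 7 (0.36) did without both libraries. Psph, which completes serine synthesis after Phgdh and Psat1, had 7.81, 8.02 and 7.84 log2 units in VEGF RNAs, against 7.57, 7.61 and 7.21 in untreated RNAs. These groups did not overlap, at a difference of 0.43 ± 0.31 (limma, adjusted p = 1.00), and 0.52 without both libraries. Cbs, of the route that makes cysteine from serine, differed by -0.20 ± 0.41 after VEGF and by 0.02 without both libraries. After Ang1 Mthfd1, a folate enzyme, differed by 0.37 ± 0.26, with all Ang1 values above all untreated ones. Mthfd2, its mitochondrial relative, differed by -0.29 ± 0.76 and by 0.78 without both libraries. Of the amino acid transporters 6 of 9 had a difference above 0 after each factor (medians 0.15 for VEGF and 0.08 for Ang1), and 4 of the 8 then tested did after each factor without both libraries (medians 0.03 and 0.01). The leucine carrier gene Slc7a5 differed by 0.54 ± 0.43 after VEGF (0.17 without both libraries), and the arginine carrier gene Slc7a1 by 0.68 ± 0.40 after Ang1 (0.07 without both libraries). The Slc7a1 value is that of 1368392_at, and its other kept probe set, 1368391_at, differed by 0.09 after Ang1. Slc38a2, which carries small neutral amino acids, was the lower one in both comparisons, with 10.55, 10.48 and 10.70 log2 units in VEGF and 10.51, 10.36 and 10.68 in Ang1 RNAs, against 10.80, 10.96 and 11.26 in untreated RNAs. All 6 treated values lay below all untreated values. The difference was -0.43 ± 0.24 for VEGF and -0.49 ± 0.24 for Ang1 (limma, adjusted p = 1.00 and 0.951) and -0.44 and -0.42 without both libraries.

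The aminoacyl-tRNA synthetases, several of which ATF4 induces, had medians of 0.16 for VEGF (8 of 13 above 0) and 0.05 for Ang1 (8 of 13). The VEGF median turned to -0.03 without both libraries, with 5 of 13 above 0, and the Ang1 median was 0.07. Sars1 had 9.24, 8.78 and 9.66 log2 units in VEGF RNAs, against 8.27, 8.27 and 8.82 in untreated RNAs. The groups overlapped at VEGF replicate 2, and the difference was 0.77 ± 0.34 (limma, adjusted p = 1.00) with all arrays and 0.69 without both libraries. Lars1, the leucyl-tRNA synthetase gene, differed by -0.38 ± 0.25 after VEGF. All its VEGF values lay below all untreated ones, though only narrowly (highest VEGF 9.64, lowest untreated 9.66). After Ang1 Yars1 differed by 0.42 ± 0.32 and Tars1 by -0.45 ± 0.38, which were 0.04 for Yars1 and -0.19 for Tars1 without both libraries.

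**Figure D4:**
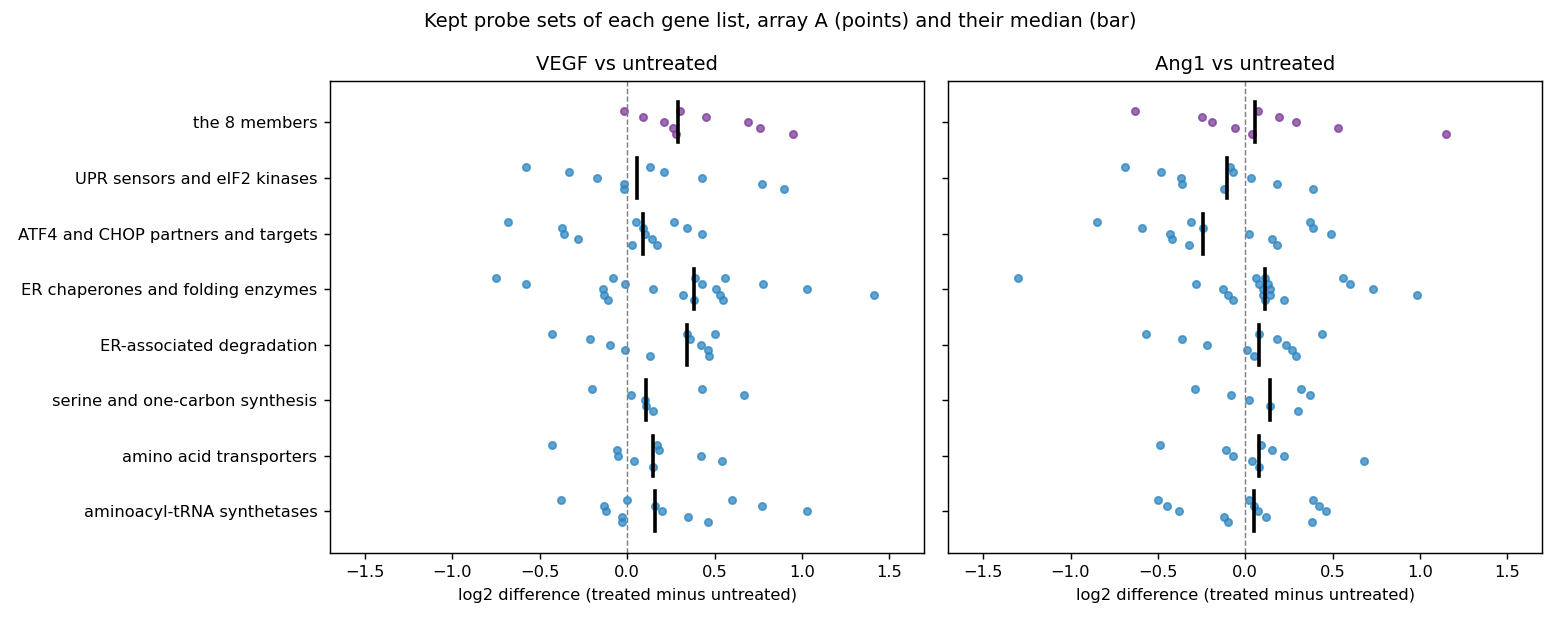
Log2 difference of VEGF (left) and Ang1 (right) against untreated for every kept probe set of the 8 members and of each pathway list on array A; bars are medians, and both comparisons share the untreated RNAs. The medians run from 0.05 to 0.38 for VEGF and from -0.24 to 0.14 for Ang1, where those over all tested were -0.01 and -0.03.

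In the direct comparison of VEGF with Ang1, the 81 pathway probe sets had a median of 0.11, and -0.08 without both libraries. Eif2s1, the eIF2 alpha subunit, had 9.04, 9.46 and 9.07 log2 units in VEGF RNAs, against 8.76, 6.74 and 8.64 in Ang1 RNAs. All VEGF values lay above all Ang1 values, and the difference of 1.14 ± 0.67 (limma, adjusted p = 0.973) was 0.50 without both libraries. Mthfd1 differed by -0.35 ± 0.26 and 1 probe set of Eif2ak1 (1374402_at) by -0.24 ± 0.25, both with all VEGF values below all Ang1 values. Both separations were narrow, with the highest VEGF and lowest Ang1 value at 8.27 and 8.32 for Mthfd1 and 8.50 and 8.55 for Eif2ak1. The other genes with the smallest p of their own list and direction were Vldlr (1.02 ± 0.64), Gadd45a (-0.52 ± 0.31), Canx (0.49 ± 0.32), Sdf2l1 (-0.61 ± 0.48), Slc1a5 (0.54 ± 0.37) and Slc7a1 (-0.64 ± 0.40), together with Syvn1 (0.46 ± 0.36), Sel1l (-0.19 ± 0.29), Psph (0.41 ± 0.31), Sars1 (0.70 ± 0.34) and Lars1 (-0.40 ± 0.25). None of these passed. Other kept probe sets of the same genes on array A differed by 0.14 and -0.12 for Vldlr, 0.15 and 0.35 for Canx, 0.08 for Slc7a1 and 0.71 for Eif2ak1. Without both libraries Vldlr differed by 0.21, Canx by 0.24, Sdf2l1 by -0.10, Slc7a1 by -0.37, Sel1l by -0.40, Psph by 0.73 and Sars1 by 0.46.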

How the data were processed

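The authors deposited 1 linear intensity per probe set and array; the submitters' processing notes name MAS5, without a version. The mean after trimming 2% at each end was 250.0 to 250.1 on every array except Ang1 replicate 3 of array B (94.79). From these, log2(signal + 16) was computed and quantile normalised within the array type, because medians differed between arrays (6.79 to 7.55 log2 units for array A, 6.13 to 7.71 for array B). The 57 control probe sets were left out, and probe sets at or above the 40th percentile of the mean were kept. Names came from the platform annotation, updated by gene ID; of 15923 probe sets of array A 12789 had 1 symbol, 312 several and 2822 none.

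Groups were compared with limma 3.58.1 in R 4.3.3 on 9 arrays of a type, with an intensity trend and Benjamini-Hochberg adjustment over all kept probe sets. The main fit had no replicate block. Deviations of same-numbered RNAs from their group means correlated above 0.1 in 3 of 3 pairs for VEGF with untreated (0.14 to 0.41 on array A). The same held for Ang1 with untreated (0.34 to 0.49), but only in 1 of 3 for VEGF with Ang1 (-0.15 to 0.23). Array B gave the same counts. The 3 deviations of a group sum to 0, so these correlations are not independent, and both libraries that stood apart carry the number 2. They cannot show whether a number marks an animal, and the block was run as an alternative only. The fit was also run on simulated arrays with independent noise in each probe set and array. These held no libraries that stand apart and no shared animals, so the run does not cover such features. The number of arrays limits the precision. The members, the lists and the rule for naming genes were chosen with earlier results of these data known. The rule named every member probe set and, per list and comparison, the smallest p in each direction (those of array B are not printed); for similarity, the 3 nearest genes. The 20 alternatives covered normalisation, constant, filter, trend, array weights, replicate block and arrays left out.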

Additional observations from a re-analysis of the deposited data

How the results depend on the processing

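With 9 arrays and an SE of 0.28 to 0.75 (0.25 to 0.47 with the replicate block), differences of the size seen were not called. Over 20 alternatives 0 member probe sets were called, and the lowest adjusted p was 0.127 (Atf4, VEGF against Ang1, array weights). Leaving out each array in turn, the member median ran from 0.12 to 0.42 for VEGF, from -0.29 to 0.35 for Ang1 against untreated and from 0.13 to 0.53 for VEGF against Ang1, and 0 probe sets of either array type or pathway list were called (0 to 0). The other alternatives widened this to a low of 0.10 for VEGF against untreated; the median was -0.03 for VEGF against Ang1 with array weights, and for Ang1 against untreated -0.18 with a common median and -0.01 with a constant of 64. Over all tested probe sets of array A, array weights called 6 for Ang1 against untreated and 24 for VEGF against Ang1, and of array B 2 and 8. Values as deposited called 117 and 25 on array B, where the median of all tested moved by -0.28 and 0.31 and where Ang1 replicate 3 had the low trimmed mean. In the fit reported, each of these counts was 0. Of 30 member differences 9 kept their sign under all alternatives. The filter, trend and replicate block settings leave the fitted difference of a kept probe set as it is, so they could not turn a sign. Scaling to a common median moved the median of all tested on array A by -0.20 for Ang1 against untreated and by 0.12 for VEGF against Ang1, and values as deposited moved it by 0.11 for Ang1 against untreated. The common median turned Atf4 to -0.01 and Ddit3 to -0.08 for VEGF against untreated, Asns to -0.10, Atf4 to -0.05, Hspa5 to -0.53 and Trib3 1370694_at to -0.02 for Ang1 against untreated, and Atf4 to 0.04 for VEGF against Ang1. Values as deposited turned Trib3 1386321_s_at to 0.06 for VEGF, and Hspa5 to -0.22 and Trib3 1370695_s_at to 0.05 for Ang1 against untreated. A constant of 64 turned Trib3 1370694_at to -0.07 for Ang1. Array weights turned Hspa5 to -0.10 and Trib3 1370695_s_at to -0.01 for VEGF, Trib3 1370694_at to -0.03 and 1370695_s_at to 0.31 for Ang1, and for VEGF against Ang1 Asns to -0.03, Hspa5 to -0.13, Trib3 1370695_s_at to -0.32, 1386321_s_at to -0.03 and Xbp1 to -0.02. Without both libraries that stood apart, Hspa5 was -0.16 and Trib3 1370694_at -0.06 for VEGF, Hspa5 -0.07, Trib3 1370694_at -0.46 and 1370695_s_at 0.21 for Ang1, and Hspa5 -0.09 and Trib3 1370695_s_at -0.03 for VEGF against Ang1. The cause was not tested beyond what each setting leaves out. Single arrays left out turned 20 further values, with ranges for VEGF against untreated of -0.06 to 0.21 (Ddit3), -0.18 to 0.72 (Hspa5), -0.01 to 0.44 (Psat1), -0.05 to 1.63 (Trib3 1370694_at) and -0.31 to 0.22 (1386321_s_at). For Ang1 against untreated they were -0.24 to 0.14 (Ddit3), -0.43 to 0.46 (Hspa5), -0.34 to 0.79 (Xbp1), -0.93 to 0.76 (Trib3 1370694_at) and -0.53 to 0.30 (1370695_s_at), and for VEGF against Ang1 -0.05 to 0.34 (Ddit3), -0.09 to 0.45 (Hspa5) and -0.03 to 0.79 (Trib3 1370695_s_at).

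The replicate block, whose pairing check stands with the processing, changed no call, since 0 probe sets passed with it in each comparison on either array type. It changed no member difference, while the SE of these ran from 0.25 to 0.47 with it.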
